A study of Rattus norvegicus with 29 samples.

Results

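The genes described here are 40 genes of the cell division cycle and of DNA replication, measured in the peripheral blood mononuclear cells (PBMC) of male Wistar rats, a common outbred laboratory strain. They were given as a list of names, and a gene was measured where a probe carried its symbol or an older synonym and its Cy5 signal exceeded background clearly on 4 or more of the 29 arrays. Of the 40, 36 had a probe of that name and 34 were tested, among 24257 genes and unnamed transcripts tested in all. Cdk1 was listed on the array as Cdc2a, Aurka as Stk6, and Cks2 and Cenpa under locus names. No probe of the name was found for Cks1b and Cdc45, the Nusap1 probe was not above background on enough arrays, and the probe named Tk1 was set aside because its listed chromosome was not that of the gene. Mki67 and Mcm3 were named only in a probe's description: their values are given beside the others and are left out of every count of members tested or called.

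The rats were 6 months old and had spent 4 months on 1 of 2 diets. Cafeteria rats received energy-dense, fat-rich foods on top of chow, which the study treats as a model of diet-induced obesity, and control rats received standard chow alone. Each diet was split into fed rats with free access to food, rats fasted for 14 h, and refed rats that were fasted and then given food for 6 h. That gave 5 fed, 5 fasted and 5 refed cafeteria rats and 4 fed, 5 fasted and 5 refed control rats. Each rat gave 1 sample, and the labels name no genetic change or drug in any group. PBMC were separated from leg-vein blood on a Ficoll gradient, so the samples hold lymphocytes, monocytes and whatever platelets stayed with them.

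A cell enters division when cyclins bind and switch on cyclin-dependent kinases. During S phase the MCM helicase opens DNA, the PCNA clamp holds the polymerases on it, DNA ligase joins the new fragments, and ribonucleotide reductase and thymidylate synthase supply the building blocks. In mitosis the spindle, its motor proteins and the checkpoint kinases separate the chromosomes. Most lymphocytes in blood are resting, and the few dividing ones include activated lymphocytes and young plasma cells (plasmablasts). Because each sample is a mixture, fewer cells of a type and less RNA per cell cannot be told apart.

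Many mitotic genes carry a CHR element (TTTGAA) near their start, bound by the DREAM and B-MYB complexes that keep such genes off in resting cells and on in dividing ones, often beside a CCAAT box (CCAAT), which binds NF-Y. Genes of S phase more often carry E2F sites (searched here as TTTGGCGC, TTTCGCGC and TTTCCCGC). The 250 bases before the start of the 4 members that fell on refeeding are shown, because those members hold these elements in different arrangements. The sequences are RefSeq's on rat build GRCr8, printed 5′ to 3′ along each gene, all from the minus strand, with CHR and CCAAT matches on either strand in capitals (TTCAAA and ATTGG are the same motifs read from the other strand).
Cks2, chr17:13727520-13727769: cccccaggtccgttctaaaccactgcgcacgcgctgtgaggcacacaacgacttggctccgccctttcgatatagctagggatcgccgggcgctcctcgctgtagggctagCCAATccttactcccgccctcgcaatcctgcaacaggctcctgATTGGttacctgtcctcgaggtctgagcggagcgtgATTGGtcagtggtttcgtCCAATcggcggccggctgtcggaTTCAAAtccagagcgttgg
Top2a, chr10:84473094-84473343: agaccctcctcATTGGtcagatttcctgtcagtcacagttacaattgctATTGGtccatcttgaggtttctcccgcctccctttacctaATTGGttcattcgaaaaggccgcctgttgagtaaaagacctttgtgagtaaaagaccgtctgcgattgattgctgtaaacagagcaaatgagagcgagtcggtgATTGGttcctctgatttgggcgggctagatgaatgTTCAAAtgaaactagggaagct
Kif23, chr8:71320585-71320834: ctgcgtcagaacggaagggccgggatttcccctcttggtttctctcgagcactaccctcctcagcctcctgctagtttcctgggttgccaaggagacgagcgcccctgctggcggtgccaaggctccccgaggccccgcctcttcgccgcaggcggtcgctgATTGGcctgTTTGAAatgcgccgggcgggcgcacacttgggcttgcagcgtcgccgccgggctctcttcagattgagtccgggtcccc
Pcna, chr3:139955821-139956070: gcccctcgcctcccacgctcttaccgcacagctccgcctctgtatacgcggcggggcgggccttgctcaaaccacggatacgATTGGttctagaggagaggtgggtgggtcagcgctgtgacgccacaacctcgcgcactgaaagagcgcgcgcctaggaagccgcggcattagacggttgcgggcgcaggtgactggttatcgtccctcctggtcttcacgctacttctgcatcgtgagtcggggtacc

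Cks2 and Top2a share a layout in these windows, with a CHR match close to the start and several CCAAT boxes upstream of it. In Cks2 the CHR match lies 19 to 14 bases before the start and the nearest CCAAT box 42 to 38 bases before it, and in Top2a the same elements lie 22 to 17 and 57 to 53 bases before it. Kif23 holds 1 of each, the CHR match 79 to 74 and the CCAAT box 88 to 84 bases before the start, and Pcna holds a CCAAT box only. Of the 33 listed genes with a promoter window in RefSeq, Mki67, Mcm3 and untested ones included, 11 (33.3%) held a CHR match against 15.2% of 19005 protein-coding promoters, 24 (72.7%) held a CCAAT box against 35.5%, and 6 (18.2%) held an E2F site against 1.92%. No searched motif is contained in another, though matches can share end bases, and a match is a description of these letters, not a site shown to be bound. The roles differed: all 9 spindle and chromosome genes with a window held a CCAAT box and 5 of them a CHR match. Of 8 replication genes 6 also held a CCAAT box and 1 a CHR match, and of 8 cyclin and kinase genes 6 and 4. E2F matches were found in 4 of 8 replication genes, Mcm2, Mcm5, Mcm6 and Mcm7. The window matters: with 50 bases after the start added, a CHR match was found in 17 of the 33 (51.5%) against 17% of all promoters, in 4 of 5 checkpoint genes where the shorter window had 1, and E2F matches in 6 of 8 replication genes.

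**Figure D1:**
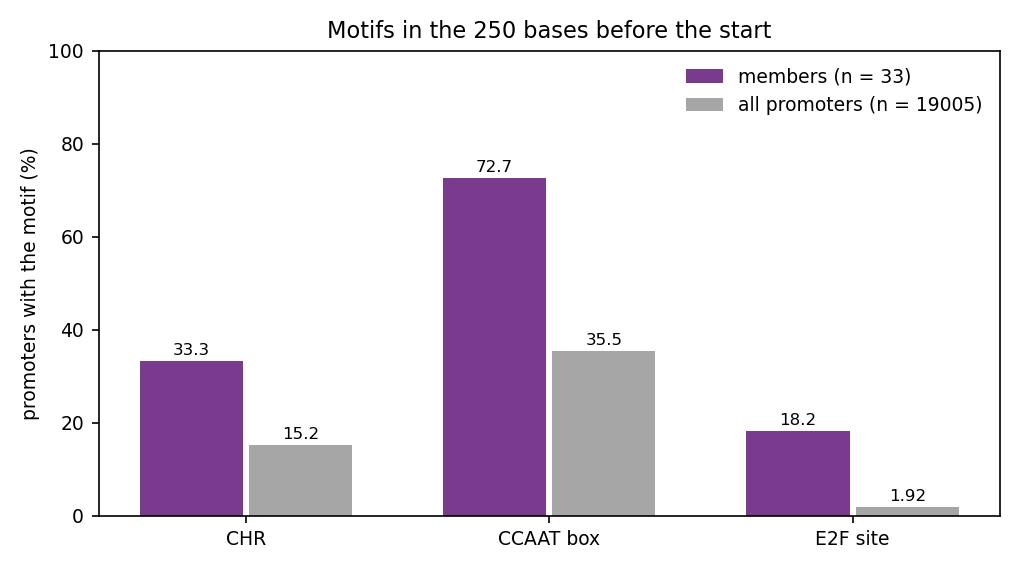
Share of promoters (percent, vertical axis from 0) with a CHR, CCAAT or E2F match in the 250 bases before the start, for the 33 members with a window and for all 19005 protein-coding promoters. All 3 motifs are more frequent in the members, with CCAAT at 72.7% against 35.5%.

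Each array carried the RNA of 1 rat in Cy5 and a common pool of RNA from all groups in Cy3, and every value below is the log2 ratio of rat over pool, so that 0 means the level of the pool. The probes are those of a 2-colour whole-genome rat array, with positions on build rn4 per the files' headers. The median Cy5 intensity was 103 to 154 per array and 53.3% to 66.7% of spots were well above background. None of the members was saturated. Cenpf was well above background on at most 2 arrays of any group, so its values are close to the limit of the signal. Array data carry no read depth: the 4 or 5 arrays in a group limit the precision, and the median standard error of a member's change was 0.11 for fasted against fed control rats. Markers of the labelled cells were present: 11 of 13 T cell markers and 9 of 10 monocyte markers were measured, all above background on every array.

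1 array stood apart and is marked wherever it matters. In fasted control rat 2 the mean over the 34 members was 0.48, against -0.04 to 0.09 in the other 4 fasted control rats, and the mean over the 8 measured plasma cell markers (of 13) was 2.02 there, against at most 0.59 on the other 28 arrays. Platelet markers also moved with feeding. Over the 11 measured platelet markers (of 17), the array means lay between -1.34 and -0.25 in refed control rats, against 0.41 to 0.77 in fasted control rats, and all 11 fell on refeeding in the control diet. In cafeteria rats the array means lay between -1.63 and 0.39 after refeeding, against -0.41 to 0.23 after the fast. All 11 had negative refeeding changes there too, with a median of -0.46, but no platelet marker passed the test. Over both diets all 11 passed as falls, with a median of -1.03. Beside the results that move with them, values are given without that rat and with the mean of these markers as a covariate.

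The first question was whether the genes of division and replication respond to a fast and to the meal that ends it. Refeeding lowered 4 of the 34 members over both diets: Cks2, an activating partner of the cyclin-dependent kinases, was 1.67-fold lower after refeeding, Top2a, the topoisomerase that untangles chromosomes, 1.31-fold lower, Pcna, the replication clamp, 1.18-fold lower, and Kif23, a motor protein of cell division's last step, 1.17-fold lower. None of the 34 rose. Mcm3, a subunit of the replicative helicase that stands outside the count, was 1.18-fold higher. Cks2 was also the one member that changed with the fast: it was 1.61-fold higher in fasted than in fed rats over both diets.

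Those counts have to be read against the whole array, which responded to refeeding broadly. Over both diets 13.5% of all genes passed the test (limma, Benjamini-Hochberg adjusted p under 0.05), 7.52% falling and 5.96% rising, so 4 of 34 members is a share close to the background and is not a result about the set. Of the 34 members, 26 (76.5%) had a negative change against 49.1% of all genes, with a median of -0.06 against 0.00. An unadjusted p under 0.05 was found for 12 members and for 6290 of the 24257 genes. Without fasted control rat 2, 20 were negative, with a median of -0.02. Median centring in place of loess gave 22, with a median of -0.06 against 0.01 over all genes. In the authors' deposited values 15 of 29 were negative, but all genes were shifted up there, and the members' median was 0.00 against 0.07. With the platelet mean as a covariate, Cks2 (-0.76, adjusted p = 0.0412) and Pcna (-0.36, adjusted p = 0.0273) passed, and Top2a (-0.48, adjusted p = 0.0633) and Kif23 (-0.20, adjusted p = 0.307) did not. Fasting over both diets called 1 of 34 members, against 4.08% of all genes (1.82% rising and 2.26% falling), with 18 members above and 16 below 0, a median of 0.01 and 5 at an unadjusted p under 0.05. That level was reached by 4050 of the 24257 genes. The fasted rats stand in both comparisons, on top in one and below in the other, so a gene that was high in them moves in opposite directions by construction.

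Within the control diet, refeeding called 3 members, in a comparison where 9.31% of genes passed, 3.3% rising and 6.01% falling: Cks2 and Top2a fell, and Lig1, the DNA ligase of replication, rose. Of the 34, 26 had a negative change, with a median of -0.10 against 0.01 over all genes. An unadjusted p under 0.05 was found for 8 members and for 5383 of the 24257 genes. Without fasted control rat 2 only 15 were negative and the median was 0.01, while 22 were negative with processed signals and 21 with Cy5 alone. The authors' deposited table had 13 of 29 negative, on a scale where the median of all genes was 0.15 and that of the members 0.03, a gap to all genes close to the reported one. With the slide or the image extraction run as a block Cks2 alone passed. With the platelet mean as a covariate none did, though the change of Cks2 was about as large, at -0.81 (limma adjusted p = 0.21). The platelet mean itself set refed control rats fully apart from fasted ones, so this fit can hardly separate it from refeeding. No member had refed values entirely apart from the fasted ones, which 10.2% of all genes had. Within the cafeteria diet no member passed (limma, 3 at an unadjusted p under 0.05, as were 3220 of 24257 genes), where 1.4% of genes did. There the smallest adjusted p-values belonged to Mcm3 (log2 change 0.27 ± 0.079 SE, adjusted p = 0.0821), Cks2 (-0.70 ± 0.21, adjusted p = 0.102) and Pcna (-0.29 ± 0.10, adjusted p = 0.175). The refed and fasted values of Pcna did not overlap there, the only one of the 34, where 3.31% of all genes were apart.

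Fasting within a diet called no member in either (limma, 2 in control and 4 in cafeteria rats at an unadjusted p under 0.05), and few genes at all, 0.177% in control and 0.853% in cafeteria rats. Of all 24257 genes, 2808 in control and 2559 in cafeteria rats were at an unadjusted p under 0.05. Control rats had 25 members above 0 and 9 below, with a median of 0.06, but 9 above and 25 below without fasted control rat 2, and median centring gave 29 above and 17 of the 29 members in the authors' deposited values were above 0. In control rats the fasted and fed values did not overlap for Cks2, Mcm2 and Lig1, 8.82% of members where 4.75% of all genes were apart. In cafeteria rats they did not overlap for Pcna alone among the 34, where 2.43% of all genes were apart.

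**Figure D2:**
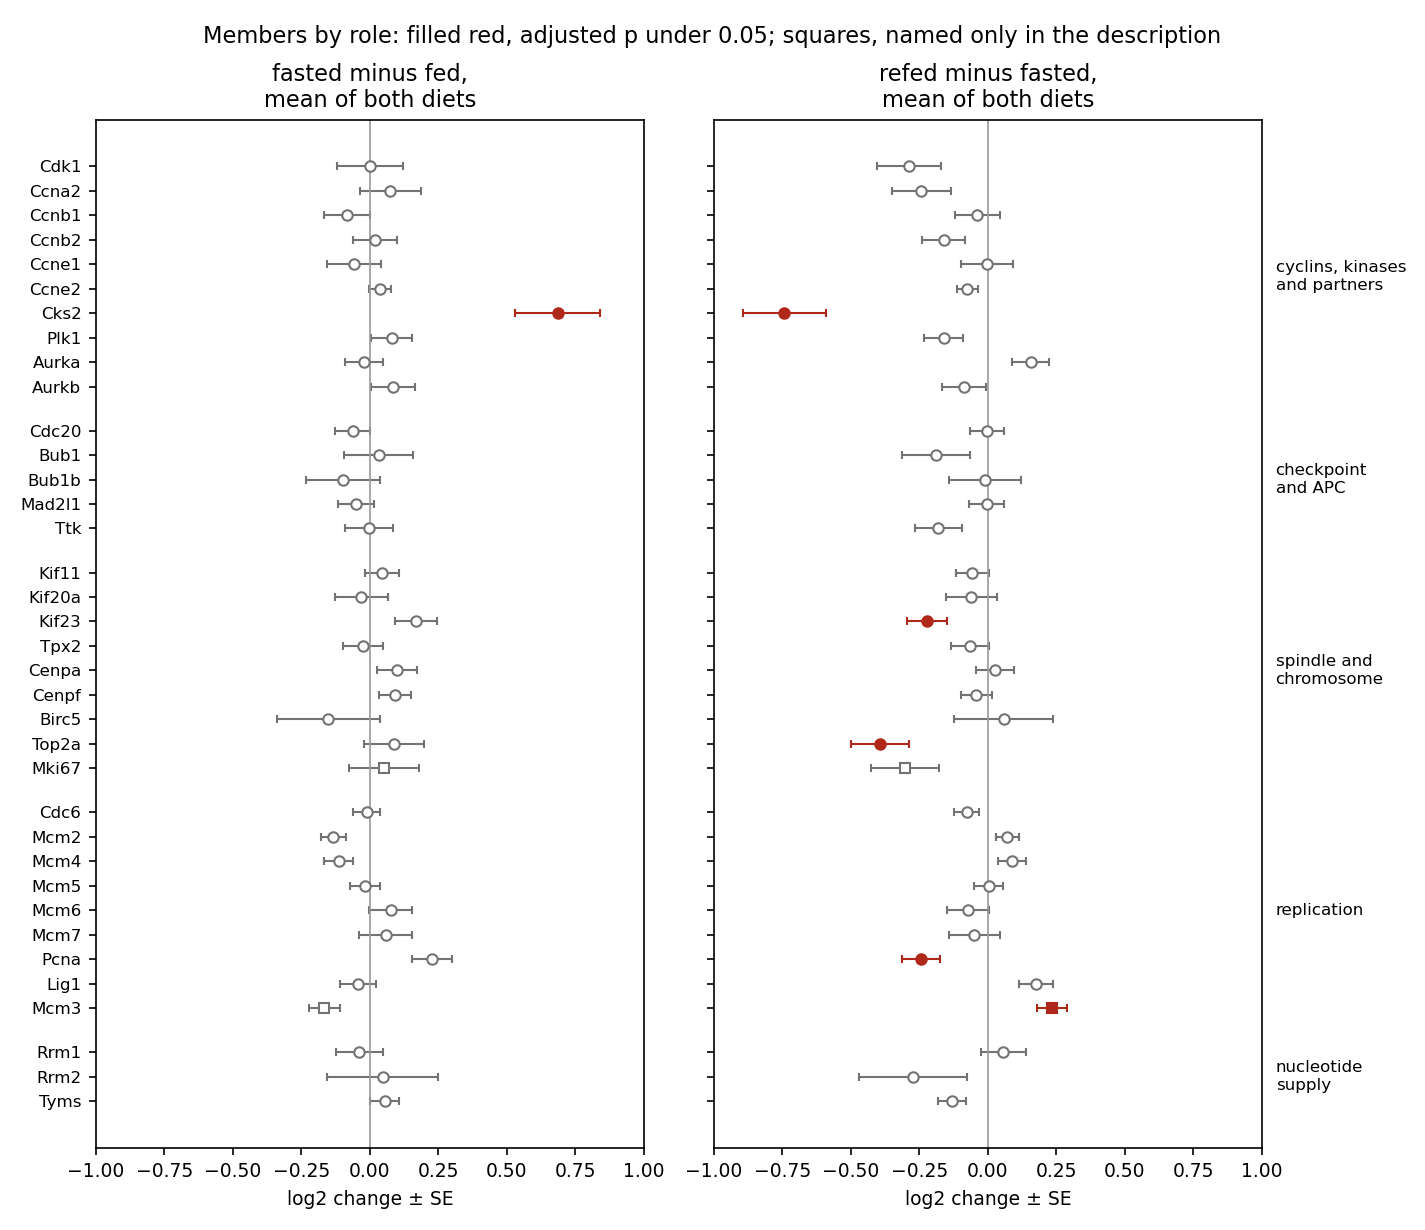
Log2 change ± SE of 36 genes grouped by role (horizontal axis), fasted minus fed and refed minus fasted, each as the mean of both diets. Filled red symbols have an adjusted p under 0.05 and squares mark Mki67 and Mcm3. Cks2 lies at 0.69 after the fast and at -0.74 after refeeding, and every other gene lies closer to 0 in both comparisons.

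Among the cyclins, kinases and their partners, Cks2 stood out. Cks2 binds Cdk1 and Cdk2 and helps them reach their substrates. Its probe lies on chromosome 17 at 19423702 to 19423761. In order of rat number, as for every gene below, its log2 ratios in cafeteria rats were 0.00, 0.01, 0.55, 0.50 and 0.29 when fed, 0.49, 0.87, 0.78, 1.13 and 1.41 when fasted, and 0.01, 0.16, 0.70, 0.33 and -0.03 when refed. Control rats gave -0.06, -0.01, 0.10 and 0.13 when fed, 0.61, 0.71, 0.43, 0.56 and 1.42 when fasted, and 0.81, -0.03, -0.33, -0.66 and -0.01 when refed. All 10 fasted rats were above all 4 fed control rats. Fed cafeteria rats reached the lower end of the fasted ones, and 1 refed rat of each diet, cafeteria rat 9 and control rat 3, lay among the fasted values.

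Cks2 averaged 0.94 ± 0.35 in fasted cafeteria rats against 0.27 ± 0.26 in fed ones, and 0.74 ± 0.39 in fasted control rats against 0.04 ± 0.09 in fed ones (SD, n = 5, except 4 fed control rats). The change with the fast was 0.69 ± 0.16 over both diets (SE, limma adjusted p = 0.0104). It was 0.67 ± 0.21 in cafeteria rats (adjusted p = 0.162) and 0.70 ± 0.23 in control rats (adjusted p = 0.186). With refeeding it was -0.74 ± 0.15 over both diets (adjusted p = 0.00155) and -0.79 ± 0.21 in control rats (adjusted p = 0.0181), where refed rats averaged -0.04 ± 0.55 and refed cafeteria rats 0.24 ± 0.30 (SD, n = 5 each). Cks2 thus had a similar size of change under both diets, each about as large as the spread between rats or larger.

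The file headers date the extraction of each array image. Arrays extracted on the same day as fed control rat 1 are called run 1 here, and all others run 2. Every group had rats in both runs, but unevenly: most fasted control and fed cafeteria rats were in run 1. Most fasted and refed cafeteria rats were in run 2, so that diet and run partly coincided. Feeding and run partly coincided too. The fast in cafeteria rats was compared largely across runs, and most refed control rats were in run 2. The fasting changes within cafeteria rats, such as those of Cks2 and Pcna, carry this limit. The refeeding difference of Cks2 over both diets was -0.52 in run 1 (3 refed, 5 fasted rats) and -1.20 in run 2 (7 refed, 5 fasted), and the fasting difference 0.54 (5 fasted, 6 fed) and 1.16 (5 fasted, 3 fed). In the control diet alone the refeeding difference was -0.18 in run 1 (2 refed, 4 fasted) and -1.75 in run 2 (3 refed, 1 fasted), and on the 3 slides that carried 1 refed and 1 fasted control rat each it was -1.74, -0.64 and 0.26. Refed control rat 3 was the refed rat on the slide with the opposite sign.

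Cdk1, the kinase that drives entry into mitosis, varied more between rats than between groups. Its log2 ratios in cafeteria rats were 0.27, -0.15, -0.21, -0.24 and 0.27 when fed, -0.36, -0.25, 0.59, -0.49 and 0.20 when fasted, and -0.45, -0.43, -0.14, -0.05 and -0.32 when refed. For control rats they were 0.34, -0.01, 0.26 and 0.18 when fed, 0.78, -0.08, 0.16, 0.10 and 0.24 when fasted, and -0.23, 0.09, -0.22, -0.13 and -0.10 when refed. Refed values overlapped fasted ones in both diets, and the change over both diets was -0.29 ± 0.12 (SE, limma adjusted p = 0.105). Of the 10 genes in this role, 9 had a negative refeeding change, with a median of -0.13. The exception was Aurka, the spindle-pole kinase, at 0.16 ± 0.068 (adjusted p = 0.132), while Plk1, another kinase of mitosis, was at -0.16 ± 0.073 (adjusted p = 0.151). The cyclins of mitosis and S phase, Ccna2 at -0.24 ± 0.11 (adjusted p = 0.139) and Ccnb2 at -0.16 ± 0.077 (adjusted p = 0.18), did not pass, and Ccnb1 was at -0.04. The 2 probes of Ccne1, the cyclin of S phase entry, disagreed: the brighter was at -0.01, and the other, above background on all 29 arrays, at -0.16 ± 0.042 over both diets (adjusted p = 0.0119) and -0.20 ± 0.060 in control rats (adjusted p = 0.0293).

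None of the 5 genes of the spindle checkpoint and of the complex it restrains passed in any comparison. Bub1, Bub1b, Mad2l1 and Ttk hold back chromosome separation until every chromosome is attached, and Cdc20 activates the complex that then lets it go. All 5 had negative refeeding changes over both diets, with a median of -0.01, and the lowest were Bub1 at -0.19 ± 0.12 (SE, adjusted p = 0.363) and Ttk at -0.18 ± 0.085 (adjusted p = 0.174).

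Top2a and Kif23 were the called genes among the 8 of the spindle and chromosomes. The Top2a probe lies on chromosome 10 at 87771459 to 87771518. In cafeteria rats its log2 ratios were 0.01, -0.11, -0.07, -0.09 and -0.17 when fed, -0.32, -0.16, 0.35, -0.42 and -0.03 when fasted, and -0.44, -0.31, -0.37, -0.26 and -0.61 when refed. In control rats they were 0.28, -0.06, -0.25 and 0.30 when fed, 0.80, -0.19, 0.10, 0.17 and 0.50 when fasted, and -0.33, 0.03, -0.38, -0.44 and -0.02 when refed. The refed cafeteria rats lay below all fed ones but overlapped the fasted ones, and in control rats 2 refed values lay above the lowest fasted value. Refed rats of both diets averaged -0.31 against 0.08 in fasted ones, a change of -0.39 ± 0.11 (SE, limma adjusted p = 0.0128). In control rats the averages were -0.23 ± 0.22 refed against 0.28 ± 0.39 fasted (SD, n = 5 each), a 1.42-fold lower level after refeeding (adjusted p = 0.0333).

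The control call of Top2a was lost without any of 5 single rats, fasted rats 2 and 14 and refed rats 3, 9 and 12, and in 8 of 11 other processing settings. Without fasted control rat 2 the change was -0.37 (adjusted p = 0.122), and over both diets -0.33 (adjusted p = 0.0281). The call over both diets was lost in 5 of the 11 settings, with changes between -0.48 and -0.34. A second Top2a probe gave smaller changes, -0.17 ± 0.082 in control rats and -0.12 ± 0.058 over both diets (SE, adjusted p = 0.211 for each). Within the image extraction runs the difference over both diets was -0.33 in run 1 and -0.53 in run 2, and with the run as a block the control call was lost (-0.48, adjusted p = 0.0574).

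Kif23 builds the midzone on which dividing cells pinch apart. Its probe lies on chromosome 8 at 66052647 to 66052706. Log2 ratios in cafeteria rats were 0.02, -0.07, 0.12, -0.08 and 0.25 when fed, 0.10, 0.05, 0.62, -0.09 and 0.28 when fasted, and -0.06, -0.30, 0.23, 0.04 and -0.10 when refed. Those in control rats were 0.20, -0.02, -0.06 and 0.15 when fed, 0.44, 0.04, 0.21, 0.28 and 0.34 when fasted, and 0.04, 0.06, 0.01, 0.10 and 0.01 when refed. The 5 refed control rats were close to one another, at 0.04 ± 0.04 against 0.26 ± 0.15 in fasted control rats (SD), with 1 fasted rat inside their range. Over both diets the averages were 0.00 refed against 0.23 fasted, a change of -0.22 ± 0.074 (SE, limma adjusted p = 0.0432). This call did not survive the removal of any of 14 single rats, with adjusted p-values up to 0.0901, among them all 5 refed control rats and fasted control rat 2. It was also lost in 9 of 11 other processing settings, with changes between -0.26 and -0.15 and adjusted p-values up to 0.416.

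Mki67, which encodes the proliferation antigen Ki-67, had the same order of group means as Top2a under each diet and did not pass. It had -0.12, -0.19, -0.13, -0.03 and 0.30 in fed, -0.45, -0.15, 0.51, -0.52 and 0.27 in fasted, and -0.36, -0.43, -0.06, -0.15 and -0.42 in refed cafeteria rats. It had 0.48, -0.09, 0.18 and 0.17 in fed, 0.97, -0.02, 0.09, 0.31 and 0.24 in fasted, and -0.14, 0.19, -0.34, -0.07 and 0.03 in refed control rats. The groups overlapped throughout, and the refeeding change over both diets was -0.30 ± 0.13 (SE, limma adjusted p = 0.113). A second Mki67 probe gave -0.26 ± 0.095 (adjusted p = 0.0731). The other genes of this role lay closer to 0 over both diets, from Tpx2, an activator of Aurka, at -0.07 to Birc5, the survivin subunit of the Aurkb complex, at 0.06.

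**Figure D3:**
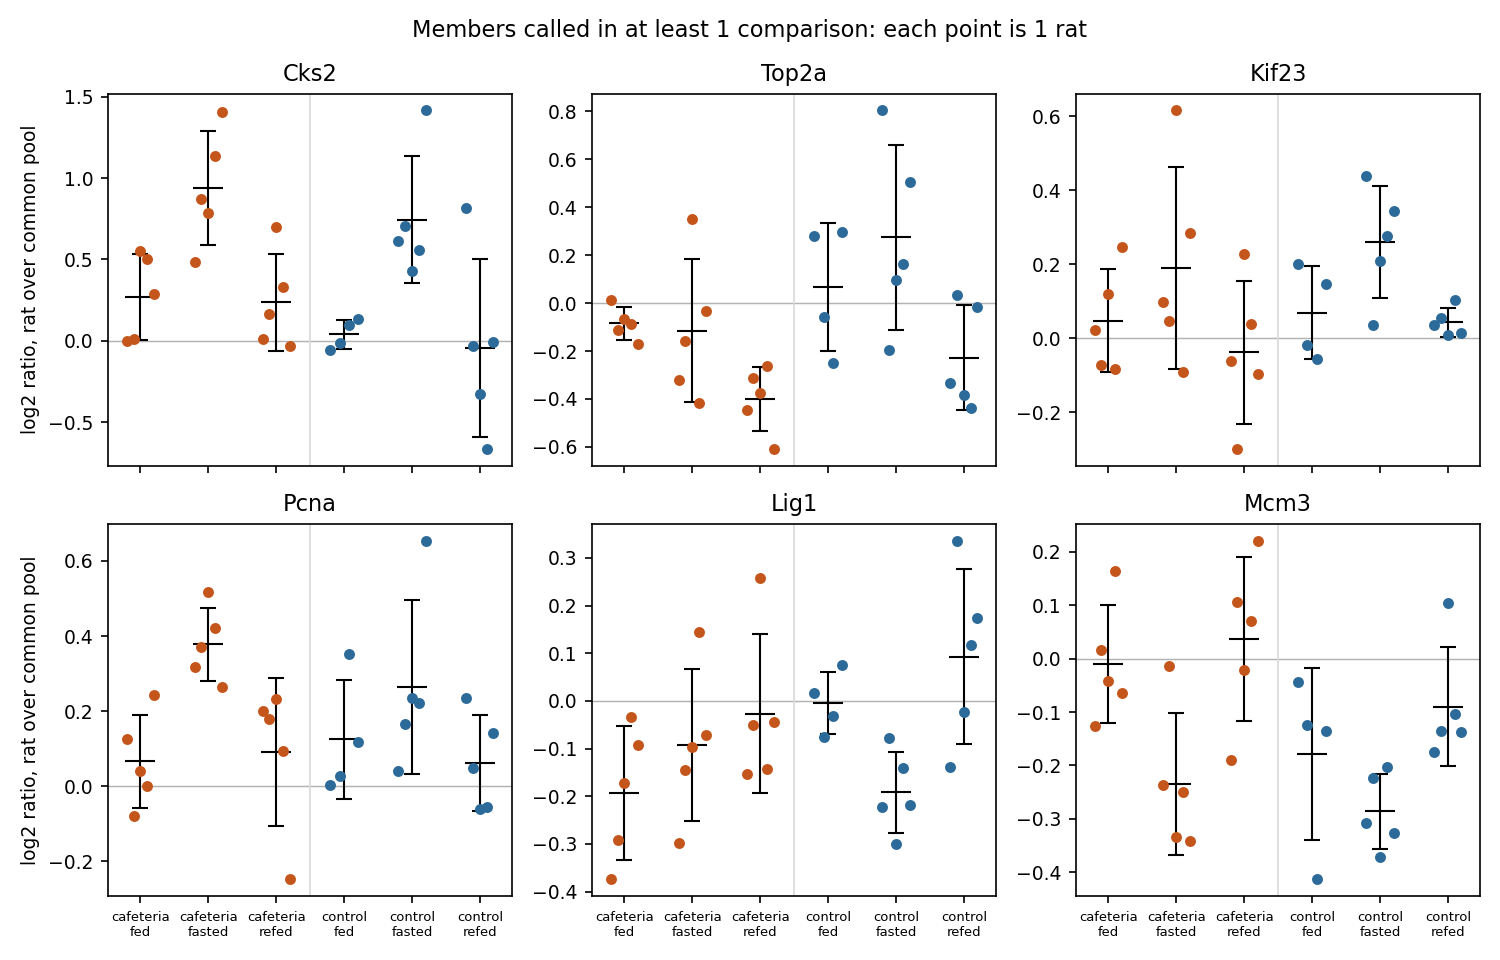
Log2 ratio of rat over pool (vertical axis) for Cks2, Top2a, Kif23, Pcna, Lig1 and Mcm3 in fed, fasted and refed cafeteria rats and then fed, fasted and refed control rats. Points are rats (n = 5 per group, 4 fed control rats), bars the mean ± SD. Cks2 is highest in fasted rats under both diets, at 0.94 and 0.74, and Mcm3 is lowest in them, at -0.24 and -0.29.

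The 8 replication genes did not move one way. Pcna fell on refeeding, Lig1 rose in control rats, and 4 of the 8 had positive and 4 negative refeeding changes over both diets, with a median of -0.02. Pcna encodes the ring that tethers DNA polymerases, and its probe lies on chromosome 3 at 120008997 to 120009056. Its log2 ratios were 0.13, -0.08, 0.04, 0.00 and 0.24 in fed, 0.32, 0.37, 0.52, 0.42 and 0.27 in fasted, and 0.20, 0.18, 0.23, 0.09 and -0.25 in refed cafeteria rats. They were 0.00, 0.03, 0.35 and 0.12 in fed, 0.04, 0.17, 0.24, 0.22 and 0.65 in fasted, and 0.24, 0.05, -0.06, -0.06 and 0.14 in refed control rats. The 5 fasted cafeteria rats lay above all fed and all refed cafeteria rats, whereas in control rats the groups overlapped. Most fed cafeteria rats were in image extraction run 1 and most fasted ones in run 2.

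Pcna averaged 0.08 in refed rats against 0.32 in fasted ones over both diets, a change of -0.24 ± 0.071 (SE, limma adjusted p = 0.0202). The fasting change was 0.23 ± 0.073 over both diets (adjusted p = 0.0815) and 0.31 ± 0.10 in cafeteria rats, at 0.38 ± 0.10 fasted against 0.07 ± 0.12 fed (SD, n = 5 each, adjusted p = 0.163). The refeeding difference was -0.10 in image extraction run 1 and -0.48 in run 2, and a second probe gave -0.15 ± 0.084 (adjusted p = 0.26). The refeeding call of Pcna was lost in 3 of 11 other processing settings, with changes between -0.36 and -0.18 and adjusted p-values up to 0.554.

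Lig1 joins the fragments of the lagging strand, and its probe lies on chromosome 1 at 73767023 to 73767082. Cafeteria rats had log2 ratios of -0.37, -0.29, -0.17, -0.03 and -0.09 when fed, -0.30, -0.15, -0.10, 0.15 and -0.07 when fasted, and -0.15, -0.05, 0.26, -0.14 and -0.05 when refed. Control rats had 0.02, -0.08, -0.03 and 0.08 when fed, -0.22, -0.08, -0.30, -0.14 and -0.22 when fasted, and -0.14, 0.34, -0.02, 0.12 and 0.17 when refed. In control rats the fasted values lay just below all fed ones, and 1 refed rat lay among the fasted. Refed control rats averaged 0.09 ± 0.18 against -0.19 ± 0.09 in fasted ones (SD, n = 5 each), 1.22-fold higher (limma adjusted p = 0.0404), and the difference was 0.28 in run 1 and 0.31 in run 2. The call was lost without any of 7 single rats, with a change of 0.28 and an adjusted p of 0.0775 without fasted control rat 2. It was also lost in 5 of 11 other processing settings, with changes between 0.19 and 0.49 and adjusted p-values up to 0.929. Over both diets the change was 0.18 ± 0.063 (SE, adjusted p = 0.0628). The fasting change in control rats was -0.19 ± 0.094 (adjusted p = 0.447).

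Of the subunits of the MCM helicase, Mcm3 rose on refeeding and Mcm2 had its lowest values in fasted rats. Mcm3 had -0.13, 0.02, -0.04, 0.17 and -0.07 in fed, -0.24, -0.01, -0.33, -0.25 and -0.34 in fasted, and -0.19, 0.11, -0.02, 0.07 and 0.22 in refed cafeteria rats. In control rats it had -0.04, -0.13, -0.41 and -0.14 fed, -0.31, -0.22, -0.37, -0.20 and -0.33 fasted, and -0.18, -0.14, 0.10, -0.10 and -0.14 refed. The refed control rats lay above all fasted control rats, and in cafeteria rats the groups overlapped through 1 fasted rat, at -0.01. Its probe, on chromosome 9 at 19538668 to 19538727, averaged -0.03 in refed rats against -0.26 in fasted ones over both diets, a change of 0.23 ± 0.056 (SE, limma adjusted p = 0.00512). The difference was 0.33 in image extraction run 2 and -0.03 in run 1, and a second probe gave 0.18 ± 0.082 (adjusted p = 0.153). The refeeding call of Mcm3 was lost in 1 of 11 other processing settings, with an adjusted p of 0.627.

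Mcm2 had 0.06, -0.03, 0.05, 0.01 and -0.12 in fed, -0.28, -0.05, 0.02, -0.11 and -0.14 in fasted, and -0.20, 0.07, -0.06, 0.00 and -0.16 in refed cafeteria rats. Its values in control rats were -0.03, -0.15, -0.13 and 0.05 fed, -0.16, -0.19, -0.17, -0.26 and -0.35 fasted, and -0.22, -0.05, -0.11, -0.15 and -0.10 refed. Fasted control rats were all below the fed ones by a small margin, with -0.23 ± 0.08 fasted against -0.07 ± 0.09 fed (SD). The fasting change was -0.13 ± 0.044 over both diets (SE, adjusted p = 0.0891) and -0.16 ± 0.064 in control rats (adjusted p = 0.302). Over both diets, Mcm4, Mcm5, Mcm6 and Mcm7 had refeeding changes of 0.09, 0.00, -0.07 and -0.05, all with adjusted p-values above 0.29, and Cdc6, which loads the helicase, was at -0.08 (adjusted p = 0.317).

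The 3 genes that supply DNA building blocks did not pass in any comparison by their brightest probe. Thymidylate synthase, Tyms, had log2 ratios of 0.22, 0.00, 0.07, 0.12 and -0.02 in fed, -0.02, 0.08, 0.30, 0.05 and -0.01 in fasted, and -0.02, 0.07, 0.00, 0.06 and -0.05 in refed cafeteria rats. Among control rats they were 0.32, 0.00, 0.13 and 0.08 fed, 0.51, 0.20, 0.06, 0.30 and 0.16 fasted, and 0.07, 0.02, 0.01, 0.12 and 0.02 refed. Refed values were the most alike, at 0.05 ± 0.05 against 0.24 ± 0.17 in fasted control rats (SD, n = 5 each), with a change of -0.20 ± 0.073 (SE, limma adjusted p = 0.0889). Rrm1 and Rrm2, the subunits of ribonucleotide reductase, had refeeding changes over both diets of 0.06 ± 0.082 (adjusted p = 0.732) and -0.27 ± 0.20 (adjusted p = 0.415). The probes of Rrm1 disagreed. A second one, above background on all 29 arrays, was at -0.16 ± 0.041 for refeeding (adjusted p = 0.00716) and 0.17 ± 0.042 for the fast (adjusted p = 0.0162), and another at -0.08 ± 0.046 (adjusted p = 0.316) and 0.11 ± 0.047 (adjusted p = 0.208).

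Refed rats were next set against fed rats, to see whether the meal brought the genes back to the level of rats that had not been fasted. No member passed under either diet, and no gene on the array did (0% called in both, limma). In cafeteria rats 1 member and 1037 of 24257 genes had an unadjusted p under 0.05, and in control rats no member and 1417 genes. The members with the smallest p-values in cafeteria rats were Top2a at -0.32 ± 0.15, Aurka at 0.19 ± 0.096 and Lig1 at 0.17 ± 0.089 (SE, adjusted p = 1 for each). In control rats they were Ttk at -0.25 ± 0.13 (adjusted p = 0.88), Top2a at -0.30 ± 0.16 (adjusted p = 0.947) and Cdk1 at -0.31 ± 0.18 (adjusted p = 0.984). Refed and fed cafeteria values did not overlap for 2 members, Ccnb2 and Top2a (5.88%), both lower when refed, where 0.581% of all genes were apart in either direction. In cafeteria rats 28 of 34 members (82.4%) had lower refed than fed values, against 49.4% of all genes, and with the slide as a block 20 had. Median centring also gave 20, with a median of -0.04 against 0.06 over all genes. Cks2 averaged 0.24 refed against 0.27 fed in cafeteria rats and -0.04 refed against 0.04 fed in control rats.

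**Figure D4:**
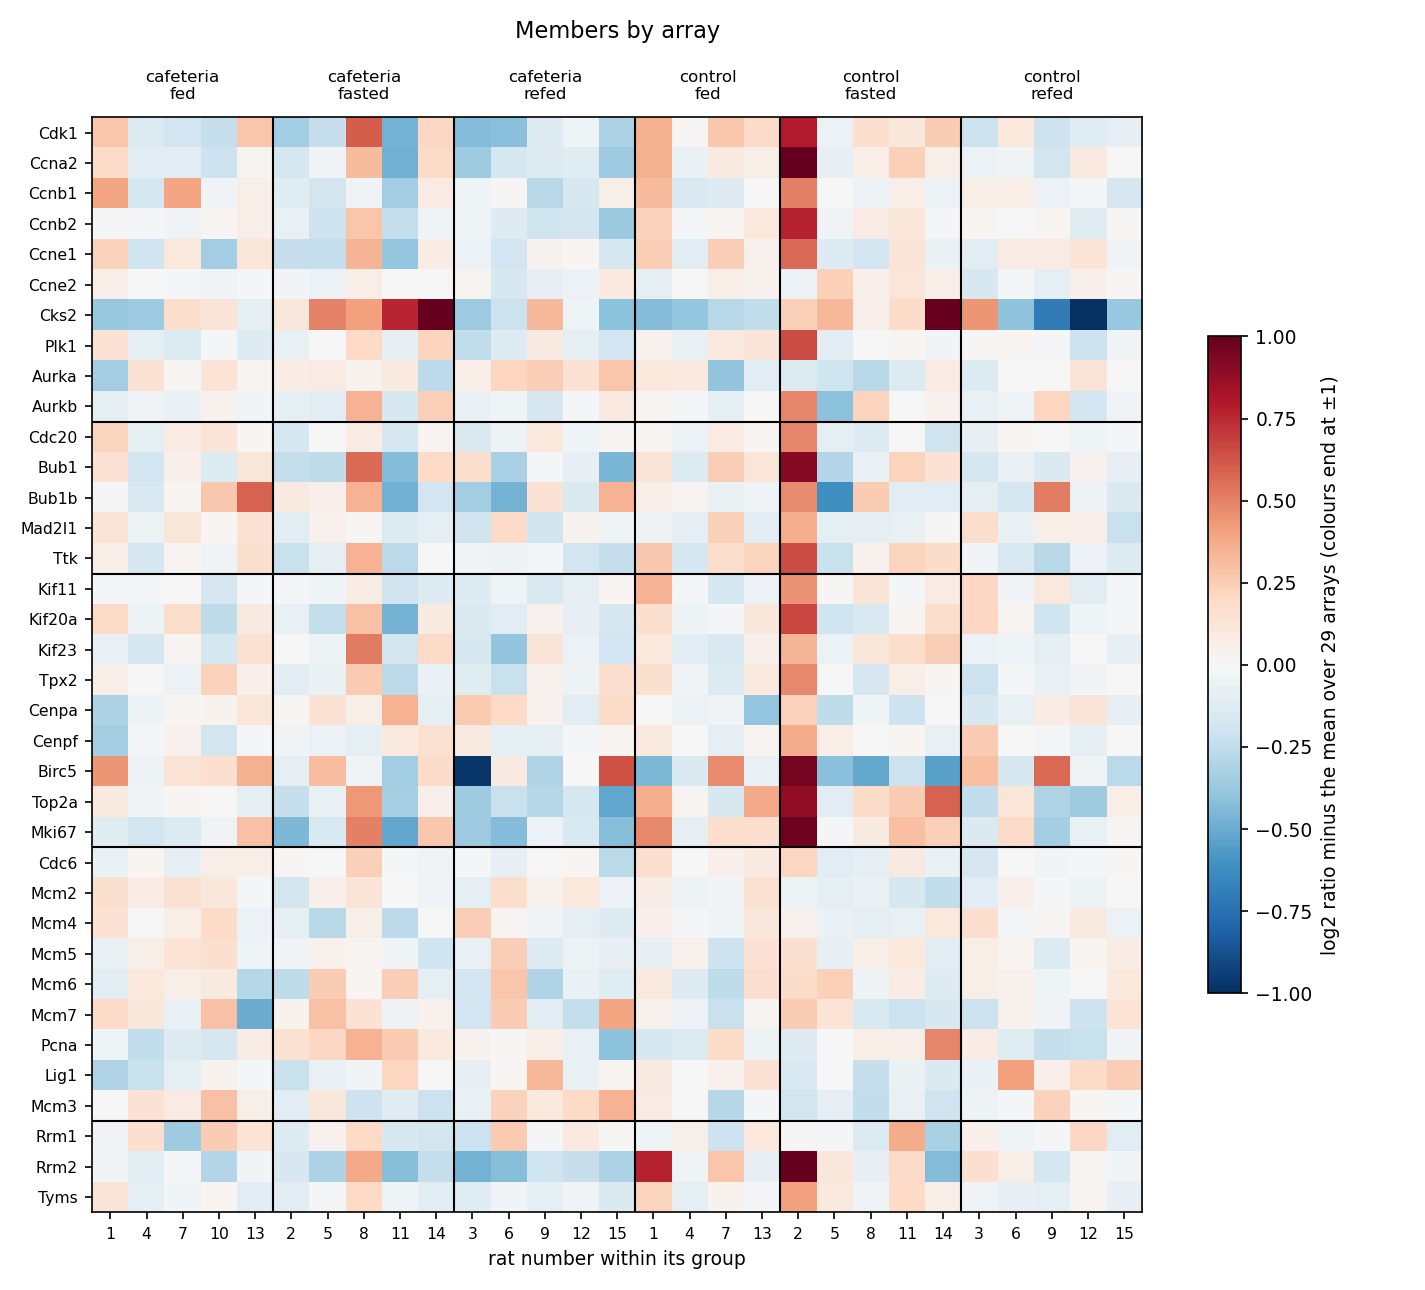
Heat map of the 36 genes (down the page, by role) on 29 arrays (across, cafeteria fed, fasted and refed, then control fed, fasted and refed). Colour is the log2 ratio minus the gene's mean over the 29 arrays, with the scale ending at -1 and 1. Fasted control rat 2 is a single column of high values, highest of all arrays for 19 of the 34 members.

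The second question was whether the cafeteria diet changed these genes. No member passed between the diets, by its brightest probe, in any feeding condition or over all 3. Over the 3 conditions 3.22% of genes passed, 2.43% lower and 0.796% higher in cafeteria rats. Of the 34 members, 9 had an unadjusted p under 0.05, as had 3686 of 24257 genes. Lower values in cafeteria rats were found for 25 members (73.5%) against 44.6% of all genes, with a median of -0.04 against 0.01. Leaving out fasted control rat 2 gave 20. Median centring gave 19, with a median of -0.01 against 0.04 over all genes, and the authors' deposited values 14 of 29, with 0.00 against 0.06. The nearest to the threshold were Top2a, at -0.20 in cafeteria against 0.04 in control rats (change -0.24 ± 0.089 SE, limma adjusted p = 0.17), Mki67, at -0.13 against 0.15 (change -0.28 ± 0.10, adjusted p = 0.179), and Ccnb2, a cyclin of mitosis, at -0.08 against 0.09 (change -0.17 ± 0.064, adjusted p = 0.192). Second probes of Top2a, at -0.17 ± 0.048 (adjusted p = 0.0496), and of Mki67, at -0.32 ± 0.079 (adjusted p = 0.0163), were lower in cafeteria rats and passed when every probe was tested on its own. Markers of other cells were also compared between the diets. All 8 measured plasma cell markers had lower values in cafeteria rats, with a median of -0.29, as did all 11 platelet markers, with a median of -0.17, and none of either passed. Fasted control rat 2, with a plasma cell mean of 2.02, stands on the control side of this difference. The plasma cell median was -0.61 between fasted rats, against -0.06 between fed and -0.30 between refed rats. The platelet median was -0.64 between fasted and -0.39 between fed rats. Between refed rats it was 0.29, and 10 of the 11 platelet markers had higher values in cafeteria rats there. Over all 3 conditions, 9 of the 10 measured erythroid markers had higher values in cafeteria rats, with a median of 0.47, and Ahsp passed. Of 9 neutrophil markers 7 had higher values and Camp passed. All 6 measured B cell markers had higher values (median 0.175), and 10 of 11 T cell markers lower ones (median -0.12). Higher values were found for 6 of 9 monocyte markers (median 0.06) and 3 of 10 natural killer cell markers (median -0.07). No B cell, T cell, monocyte or natural killer cell marker passed.

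Within single conditions the diets differed no more clearly. In fasted rats diet and image extraction run partly coincided, as given above. In fasted rats 0.849% of genes passed, and 4 members and 3583 of 24257 genes had an unadjusted p under 0.05. Top2a was at -0.12 ± 0.30 in cafeteria against 0.28 ± 0.39 in control rats (SD, n = 5 each, adjusted p = 0.226). Kif11, the motor that pushes spindle poles apart, changed by -0.20 ± 0.086 (SE, adjusted p = 0.283) and Tyms by -0.16 ± 0.073 (adjusted p = 0.291). In refed rats, with 0.223% of genes called, Aurka was at 0.19 ± 0.096 (adjusted p = 0.646), Mcm3 at 0.13 ± 0.079 (adjusted p = 0.765) and Ccnb2 at -0.17 ± 0.11 (adjusted p = 0.772). In fed rats, with 0.00412% called, Mcm3 was at 0.17 ± 0.084, Lig1 at -0.19 ± 0.094 and Cenpf, a kinetochore protein, at -0.11 ± 0.086 (SE, adjusted p = 1 for each). In neither fed nor refed rats did a member have an unadjusted p under 0.05, where 1096 and 1937 of 24257 genes did.

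Whether the 2 diets answered feeding differently was tested directly as an interaction, and neither the fasting nor the refeeding interaction was called for any member or any gene (0%, limma, 1 and 0 members at an unadjusted p under 0.05). Of 24257 genes, 776 and 1815 were at that level. For the fast, cafeteria minus control, the smallest p-values belonged to Lig1 at 0.29 ± 0.13, Ccnb1 at -0.34 ± 0.17 and Mcm5 at -0.14 ± 0.11 (SE, adjusted p = 1 for each). For refeeding they belonged to Lig1 at -0.22 ± 0.13 (adjusted p = 0.714), Ttk at 0.25 ± 0.17 (adjusted p = 0.774) and Tyms at 0.13 ± 0.10 (adjusted p = 0.802). The calls of Top2a and Lig1 in control rats are therefore not shown to be particular to that diet.

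Other genes of the pathway were read from 4 lists. On refeeding over both diets, 1 of 15 measured genes of G1 entry rose and 2 fell, 1 of 40 genes of mitosis rose and 4 fell, 2 of 36 replication genes rose and none fell, and 1 of 8 inhibitors of cyclin-dependent kinases fell, against the 13.5% of all genes given above. By smallest p, Cenpk, a kinetochore gene, changed by -0.65 ± 0.098 (SE, limma adjusted p = 0.000179), Cdk2, the kinase of S phase entry, by 0.25 ± 0.050 (adjusted p = 0.00131) and Rb1, the retinoblastoma brake on E2F, by -0.67 ± 0.16 (adjusted p = 0.00561). Rfc1, a subunit of the loader of the PCNA clamp, changed by 0.22 ± 0.056 (limma adjusted p = 0.00753). Cdkn1a, the inhibitor p21, changed by -0.52 ± 0.14 (adjusted p = 0.0133) and Zwint, a kinetochore gene, by -0.33 ± 0.095 (adjusted p = 0.0215). Pcna and Rfc1 thus had changes of opposite sign, as had Cks2 and its partner Cdk2, and a link within either pair was not tested. Of the replication list only Rfc1 and Pole2 passed here, so no other listed subunit of the loader did.

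With the fast over both diets, Cdkn1a rose by 0.61 ± 0.15 (SE, limma adjusted p = 0.0161) and Cenpk by 0.43 ± 0.10 (adjusted p = 0.0144), as Cks2 did. Of the replication list, Pold3, a polymerase subunit, rose by 0.18 ± 0.049 (adjusted p = 0.0354) and Pola2, a subunit of the priming polymerase, changed by -0.15 ± 0.040 (adjusted p = 0.0326). In cafeteria rats alone the fast called Cdkn1a, at 0.97 ± 0.20 (adjusted p = 0.0215), and refeeding called Cdkn1a at -0.81 ± 0.20 (adjusted p = 0.0405), Cenpk at -0.59 ± 0.14 (adjusted p = 0.0275) and Pole2, a polymerase subunit, at 0.31 ± 0.071 (adjusted p = 0.0244). In control rats refeeding called 3 of 15 genes of G1 entry, 4 of 40 of mitosis, 2 of 36 of replication and 0 of 8 inhibitors, against 9.31% of all genes. Among them Cenpk was at -0.71 ± 0.14 (adjusted p = 0.00221), Cdk2 at 0.35 ± 0.071 (adjusted p = 0.00265) and Rb1 at -1.03 ± 0.23 (adjusted p = 0.0041). Between the diets over all conditions, Ccnd2, a cyclin of G1, was lower in cafeteria rats at -0.49 ± 0.12 (adjusted p = 0.0128) and Cdc27, a subunit of the complex that Cdc20 activates, at -0.27 ± 0.062 (adjusted p = 0.0124).

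The members had a median SD over the 29 arrays of 0.17 against 0.14 for all genes, and fasted control rat 2 stood highest in most of them. That rat had the highest value of all 29 arrays for 19 of 34 members (55.9%), against 6.89% of all genes. Rrm2 was at 2.12 there and at most 0.78 on the other 28 arrays, Ccna2 at 1.07 and at most 0.42, Ccnb2 at 0.78 and at most 0.28, and Plk1 at 0.66 and at most 0.22. Cks2 was not among the 19, at 0.61 within the range of 0.43 to 1.42 of the other fasted control rats, and neither were Pcna, Lig1 and the MCM genes: Pcna was at 0.04, below the 0.17 to 0.65 of the others.

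The same rat had the highest plasma cell markers of the series, with Tnfrsf17, the receptor BCMA, at 2.83, Mzb1 at 2.68 and Jchain, the joining chain of secreted antibodies, at 2.55. With the plasma cell mean as a covariate, Cks2 (-0.79, adjusted p = 0.025) and Lig1 (0.29, adjusted p = 0.047) kept their refeeding calls in control rats and Top2a did not (-0.45, adjusted p = 0.0605). Averaged over the 34 members, cafeteria rats were at 0.04 ± 0.04 fed, 0.04 ± 0.13 fasted and -0.04 ± 0.04 refed, and control rats at 0.06 ± 0.07 fed, 0.12 ± 0.21 fasted and 0.01 ± 0.02 refed (SD). The fasted groups had the widest spread under both diets, with fasted cafeteria rat 8 at 0.25 and fasted control rat 2 at 0.48.

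**Figure D5:**
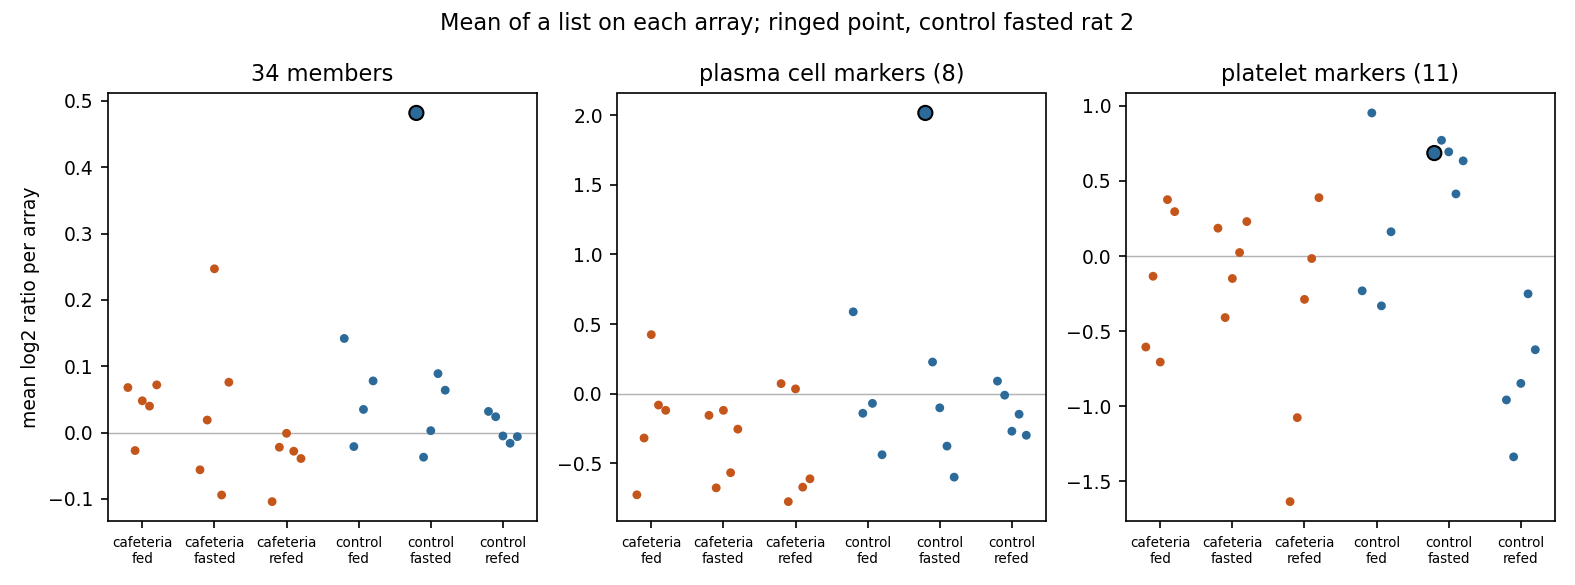
Mean log2 ratio per array (vertical axis) over the 34 members, the 8 plasma cell markers and the 11 platelet markers, by group, cafeteria before control. Points are rats and the ring marks fasted control rat 2, which has the highest member mean, 0.48, and plasma cell mean, 2.02. Platelet means of refed control rats lie below those of all fasted control rats.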

How the data were processed

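Cy5 and Cy3 spot intensities were written by Agilent Feature Extraction 9.5.1.1 per the file headers, and the authors' deposited table holds log2 Cy5 intensities, normalized by a method not given in the sources used here. Each rat was 1 sample, so p-values measure the spread between rats. From the scanner intensities, normexp background correction (offset 50) and loess within arrays gave log2 ratios of Cy5 over Cy3. Probes with Cy5 well above background on at least 4 of 29 arrays were kept (28242), and the brightest probe stood for its gene (24257). All 29 arrays entered 1 limma 3.58.1 fit (lmFit, eBayes, R 4.3.3) of 6 group means with 14 contrasts, adjusted by Benjamini-Hochberg over all genes and called at an adjusted p under 0.05, and the scripts were tested on simulated data. Comparisons share groups, such as the fasted rats. Named were the members called in a comparison, otherwise the 3 with the smallest p, values by array for called members, Mki67, Top2a, Cdk1, Cks2, Pcna, Mcm2 and Tyms, and at most 6 called genes of the pathway lists. Members and lists were chosen with earlier results of these data known. Of 41012 probes, 19976 had a symbol in RefSeq and 189 lay on another chromosome and were set aside. Alternatives were other normalizations and filters, the deposited table, blocks for slide, image extraction run and rat number, marker means as covariates, and leaving out each array.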

Additional observations from a re-analysis of the deposited data

Results flagged for a closer look

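Values by array were compared within each group of 4 or 5 rats, for 66 groups of values, and 5 rats lay far from the rest of their group by Dixon's criterion, which chance alone meets in about 1 group in 20.

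Cks2 was at 1.415 in fasted control rat 14, against 0.429 to 0.706 in the other fasted control rats. Without that rat the refeeding change of Cks2 in control rats was -0.62 (limma adjusted p = 0.0707), and over both diets the call held, at -0.66. Pcna was at -0.248 in refed cafeteria rat 15, against 0.094 to 0.233 in the other refed cafeteria rats. Lig1 was at 0.257 in refed cafeteria rat 9, against -0.154 to -0.045 in the others. Mcm3 was at 0.104 in refed control rat 9, against -0.175 to -0.104 in the others. The mean of the 34 members was 0.482 in fasted control rat 2, against -0.037 to 0.089 in the others, together with a plasma cell marker mean of 2.02.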

How the results depend on the processing

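The counts of called members took 566 alternative values over 14 comparisons, of which 544 stayed within 1.5 times the reported count. Most of the 14 comparisons had a reported count of 0, where only another 0 was taken as the same. That share therefore says little about the comparisons that called members. Refeeding in control rats (3 members) called 1 with median centring, 1 with the slide and 1 with the image extraction run as a block, and 0 with the platelet mean as a covariate. Leaving out single rats gave 0 to 4: 0 without fasted control rat 14 or refed control rat 12, 1 without fasted control rat 2 or refed control rat 9, and 4 without fasted control rat 5. Refeeding over both diets (4 members) called 2 with processed signals, 1 with median centring, 2 with Cy5 alone, 2 in the authors' deposited table (29 members, 1 rising) and 2 with the platelet covariate, and 3 to 5 without single rats. Fasting over both diets (1 member) called 0 with median centring, 2 with the platelet covariate and 2 with every probe on its own, and 1 to 2 without single rats. The diet comparison over all conditions (0 members) called 1 with processed signals and 1 with every probe on its own. Refeeding in cafeteria rats called 0 to 1 without single rats, namely 1 without refed control rat 3. The 10 comparisons with no range given here called 0 without any single rat.

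For the 9 called changes of single genes, 360 alternative values held 298 that still passed, 62 that no longer did, and 0 with the opposite sign. Cks2 over both diets kept its refeeding call in all of them, between -1.05 and -0.66, and Cks2 in control rats lost it without fasted control rat 14, refed control rat 9 or refed control rat 12 and with the platelet covariate (adjusted p = 0.21). The cause of these losses was not tested. The authors' deposited table put the median of all genes at 0.15 for refed minus fasted control rats, where the members' median was 0.03, so that their changes lay below that shift.

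Rat numbers in the labels showed no clear pairing in the expression values. Of 14 pairs of cafeteria and control rats with 1 number, 2 deviated together with a correlation above 0.1, in a range of -0.15 to 0.21. In 3 pairs the cafeteria rat correlated best with the control rat of its own number. Whether equal numbers marked a pairing in the design cannot be told from these correlations. With that number as a replicate block, 0 members were called in all 6 diet comparisons, as without it.

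Precision is limited by 4 or 5 arrays a group, and dim probes such as Cenpf are close to background.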

Other observations

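Outside fasted control rat 2, no array held the highest value of more than 3 members, and the lowest values gathered on fasted cafeteria rat 11, with 7 of the 34, and refed cafeteria rat 15, with 6.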
